A study of Mus musculus with 78 samples.

Results

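Kidney messenger RNA of male C57BL/6J mice was examined for the amino acid transporters of 7 solute carrier families, SLC1, SLC3, SLC6, SLC7, SLC36, SLC38 and SLC43. The genes were chosen by symbol. Of 24499 genes counted, 66 carried a symbol of these families, and 44 of them reached a mean of at least 1 CPM (counts per 1000000 counts in genes) over the libraries with 1000000 or more counts in genes. The other 22 stayed below that minimum. Slc43a1, at 2.51 CPM, stood just inside it, and Slc6a14, at 0.885 CPM, just outside. One of the 44, Slc7a6os, matched by name alone: it is the neighbour of Slc7a6 on the opposite strand and not a transporter.

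Over 8 weeks the mice were fed a diet of 31% fat (HFD, high-fat), a methionine, choline and folate deficient diet (MCD), or a diet of 4% fat (LFD, low-fat). Tetrachloroethylene (PERC), a chlorinated solvent of dry cleaning, was then given at 300 mg/kg a day in a vehicle of Alkamuls-EL620 and saline, and other mice had vehicle alone. Under the repeated regimen mice died 4 h after the last of 5 daily doses. It contributed 8 PERC libraries and 8 vehicle libraries from HFD mice, 8 and 7 from MCD mice, and 9 and 7 from LFD mice. Under the single regimen PERC mice died 24 h after their 1 dose, and the hour at which its vehicle mice died is not given in the sources used here. It contributed 5 PERC libraries and 4 vehicle libraries from HFD mice, 4 and 3 from MCD mice, and 4 and 5 from LFD mice. The title of the series asks how fatty liver and steatohepatitis, which the HFD and MCD diets model, bear on PERC effects in the kidney. All animals were males of 1 strain, and each library came from pulverized whole kidney, so that fewer cells of a type and less RNA per cell cannot be told apart.

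Proximal tubule cells reclaim filtered amino acids. Sodium-driven carriers and heteromeric exchangers of the brush border take them up from the urine, and a second set of exchangers and uniporters on the basolateral side passes them to the blood. The heteromeric exchangers pair a light chain of the SLC7 family with a heavy chain of the SLC3 family, which brings the light chain to the membrane. Several transporters of this collection, among them Slc1a5, Slc7a1, Slc7a5, Slc3a2, Slc38a2 and Slc7a11, are known targets of ATF4, the transcription factor that cells induce when amino acids run short or proteins misfold. Slc7a11 is also a known target of NRF2, the factor of the oxidative stress response.

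Each promoter window shown holds a match to a motif described below. The windows belong to members whose level moved with PERC or diet, and to a member of the ATF4-linked list that holds an ATF4-type element. Most member windows hold no match, so those shown are not typical of the members. Each window runs from 250 bases before to 50 bases after a RefSeq transcription start on GRCm38.p6, 5′ to 3′ on the gene's strand. RefSeq windows were at hand for 30 of the 44 members, 49 windows in all. None was at hand for Slc1a5, Slc7a13, Slc38a3 or Slc7a2, which also moved. Capitals mark matches, on either strand, to the ATF4-type element core TGATGNAA in Slc1a4 and Slc7a7, and to the core of the antioxidant response element, TGACNNNGC, in Slc7a1 and Slc43a1. The Slc7a1 window is chr5:148399855-148400154 (minus strand), that of Slc43a1 chr2:84840073-84840372 (plus strand), that of Slc1a4 chr11:20332664-20332963 (minus strand) and that of Slc7a7 chr14:54417895-54418194 (minus strand).
Slc7a1: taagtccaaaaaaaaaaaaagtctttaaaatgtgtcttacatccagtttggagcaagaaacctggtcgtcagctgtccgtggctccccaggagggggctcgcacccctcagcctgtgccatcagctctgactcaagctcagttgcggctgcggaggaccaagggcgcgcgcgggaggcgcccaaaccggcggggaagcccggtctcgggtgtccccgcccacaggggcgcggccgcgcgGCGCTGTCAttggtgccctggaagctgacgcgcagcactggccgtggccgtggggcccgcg
Slc43a1: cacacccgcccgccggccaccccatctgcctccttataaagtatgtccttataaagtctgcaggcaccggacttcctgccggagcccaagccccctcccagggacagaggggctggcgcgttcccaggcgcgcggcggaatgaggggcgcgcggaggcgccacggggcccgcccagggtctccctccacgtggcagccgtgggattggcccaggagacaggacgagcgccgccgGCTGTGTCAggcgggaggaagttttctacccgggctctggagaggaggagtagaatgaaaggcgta
Slc1a4: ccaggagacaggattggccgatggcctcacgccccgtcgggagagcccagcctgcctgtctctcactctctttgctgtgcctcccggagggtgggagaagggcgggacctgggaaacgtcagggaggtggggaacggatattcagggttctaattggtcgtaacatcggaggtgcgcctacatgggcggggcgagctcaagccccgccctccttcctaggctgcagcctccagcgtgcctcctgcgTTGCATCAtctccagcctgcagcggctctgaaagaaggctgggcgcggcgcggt
Slc7a7: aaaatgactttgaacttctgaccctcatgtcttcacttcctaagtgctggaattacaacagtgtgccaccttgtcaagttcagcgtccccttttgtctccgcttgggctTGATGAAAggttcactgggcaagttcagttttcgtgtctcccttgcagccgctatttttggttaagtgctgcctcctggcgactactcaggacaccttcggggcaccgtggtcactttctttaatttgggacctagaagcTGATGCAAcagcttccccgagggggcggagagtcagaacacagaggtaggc
The ATF4-type core was found in 3 of the 49 member windows, which belong to Slc1a4 and Slc7a7, and in 3.97% of 32851 mouse promoter windows of the same length. The antioxidant core was found in 9 of the 49, which belong to Slc36a1, Slc38a2, Slc43a1, Slc6a13, Slc6a9, Slc7a1 and Slc7a6, and in 12.39% of the 32851 windows. The 2 motifs share no match in these windows. A match describes the letters of the window and not binding.

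Library depth, as counts in genes, was 8556278 to 28508827 under repeated dosing and 9047579 to 42022166 under single dosing. The 44 members took 0.585% to 0.802% of them. Markers of the proximal tubule segments S1 and S2 were high in every group, at 7239.7 to 13378 summed CPM with none of the 6 at 0. One library stood apart from the others of its label, for a reason that was not tested. The library labelled LFD repeated PERC replicate 4 held 4.07 CPM of Asns (asparagine synthetase, an ATF4 target), 1.82 CPM of Havcr1 (the tubule injury marker KIM-1) and 121 CPM of Cyp4a14 (a target of the fatty acid receptor PPARα). The other 8 LFD repeated PERC libraries held 15.6 to 80.8, 14.003 to 205 and 911 to 7610.5 CPM, against 3.29 to 5.91, 1.76 to 2.71 and 57.01 to 180.0 CPM in LFD repeated vehicle libraries. In 36 of the 44 members this library lay within the vehicle range. The same count was not made for the other PERC libraries, and members unmoved by PERC can lie there in any library. Calls of members after repeated PERC on LFD are therefore also given without it. Because it was doubted on markers of the PERC response, leaving it out favours such calls. Over all genes they rose from 1010 to 1798.

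The level of the members spanned more than 3 orders of magnitude. Levels between genes are compared as CPM per kb of exons, in the 7 LFD repeated vehicle libraries. Slc7a13, the cystine and acidic amino acid light chain of the late proximal tubule, stood highest at 554 ± 69.8 CPM per kb (SD, n = 7). Slc3a1, the brush border heavy chain rBAT, followed at 338 ± 31.6, ahead of the neutral amino acid carriers Slc6a18 at 192 ± 17.9 and Slc6a19 at 108 ± 11.6 CPM per kb. The ranges of these 4 did not overlap one another. Together with Slc6a6, the taurine transporter, at 81.96 ± 7.58 CPM per kb, they made up 65.2% of the summed level per length of the 44 members. From Slc6a6 down to Slc6a13 each neighbour in the order overlapped the next: the basolateral light chain Slc7a7 at 74.3 ± 9.35, the cystine light chain Slc7a9 at 71.8 ± 6.74, the heavy chain Slc3a2 at 68.1 ± 9.56, the basolateral light chain Slc7a8 at 60.7 ± 8.18, the glutamate transporter Slc1a1 at 53.9 ± 1.94, the creatine transporter Slc6a8 at 53.5 ± 3.64 and the GABA and taurine carrier Slc6a13 at 51.1 ± 1.49 CPM per kb. The lowest were Slc43a1 at 0.369 ± 0.0882 and Slc36a2 at 0.13 ± 0.12 CPM per kb.

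**Figure D1:**
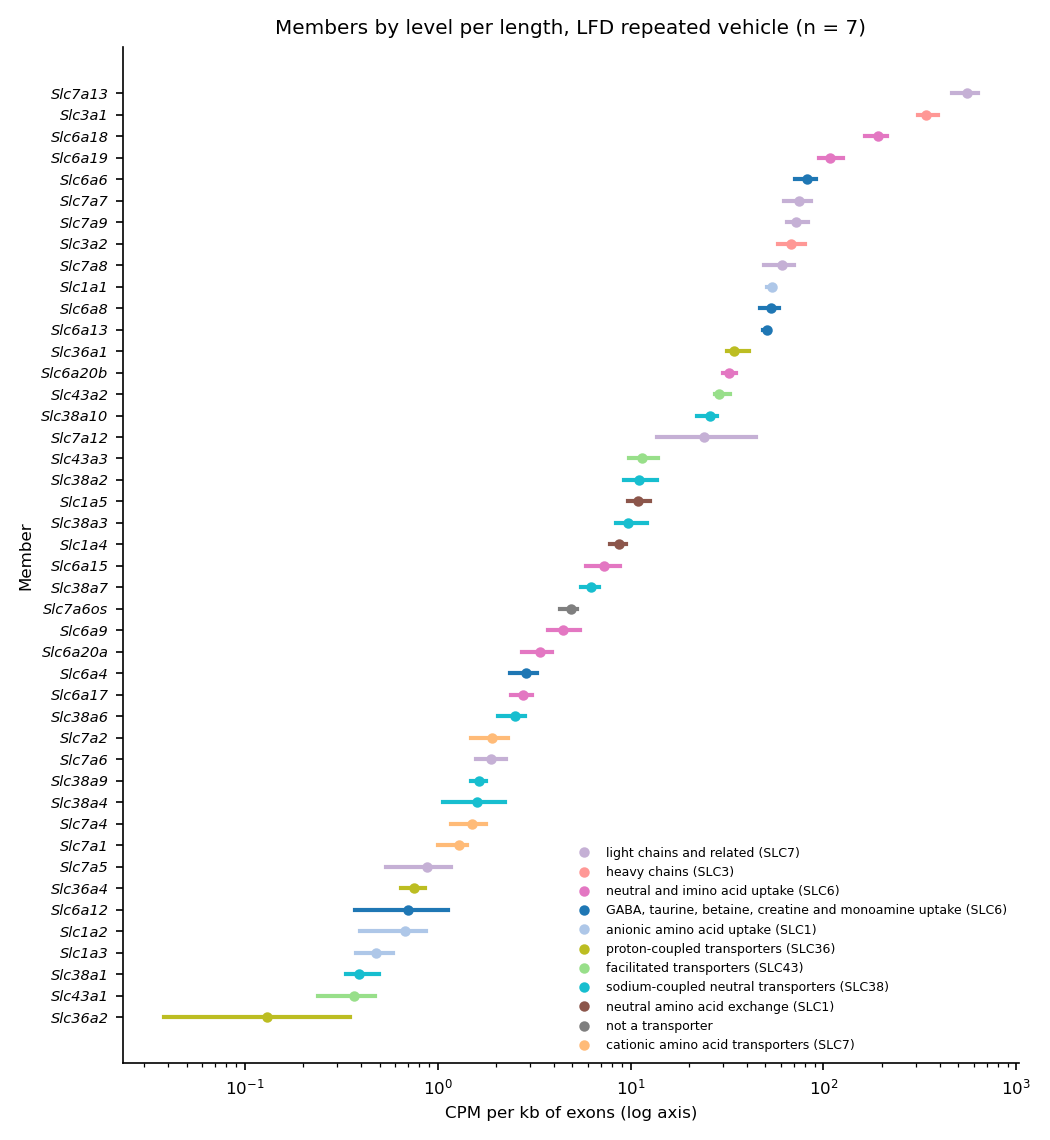
Mean level (point) and range (line) of each of the 44 members in the 7 LFD repeated vehicle libraries, in CPM per kb of exons on a log axis, coloured by role group. Slc7a13, Slc3a1, Slc6a18 and Slc6a19 stand apart at the top, and most other neighbours overlap.

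Some levels are uncertain because another gene shares the exons on the opposite strand and the strand setting of the counting is not given in the sources used here. The shared part was 38.6% of exon bases in Slc6a9, 31.9% in Slc1a1, 26.5% in Slc3a1, 21.1% in Slc6a20b, 14.9% in Slc6a20a and 13.3% in Slc7a4, and below 10% in the other members. Only reads with 1 place in the genome entered the gene counts, so the sequence-related pair Slc6a20a and Slc6a20b may be undercounted.

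Across the 12 groups the highest group mean was 1.20 times the lowest for Slc38a9, the lysosomal arginine sensor, which varied least. It was 3.89 times for Slc38a3, 3.56 times for Slc43a1 and 2.76 times for Slc7a13. Slc36a2 and Slc7a12 had wider ratios, 11.8 and 8.17 times, but also scattered most within vehicle groups, with a median coefficient of variation of 79.3% and 49.9%, against 5.43% for Slc43a2, the steadiest.

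A member was called at an adjusted p under 0.05, Benjamini-Hochberg over all genes tested with edgeR's quasi-likelihood F test. In the 10 comparisons of PERC with vehicle and of diet with LFD, 25 of the 44 members were called at least once and 19 never. PERC comparisons called 16 members and diet comparisons 11, and 2 members, Slc3a2 and Slc38a2, were called in both. The share of all genes called at least once was not counted, so these totals cannot be set against a background. Shares by comparison follow. After 5 PERC doses, 10 members were called on LFD, where 6.91% of all genes were. Of these, 7 were higher (4.48% of all genes) and 3 lower (2.43%). On HFD 8 members were called, against 9.18% of all genes, 5 higher (4.97%) and 3 lower (4.22%). On MCD 6 were called, against 5.1% of all genes, 4 higher (2.72%) and 2 lower (2.38%), and 3 without MCD PERC replicate 7 or without MCD PERC replicate 8. Without the library labelled LFD repeated PERC replicate 4, the LFD count was 17 members, 11 higher and 6 lower, and the share of all genes called was 12.3%. The members did not move one way as a body: their median log2 fold change was 0.06 on LFD, 0.07 on HFD and 0.02 on MCD, beside 0.00, 0.00 and 0.01 over all genes.

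**Figure D2:**
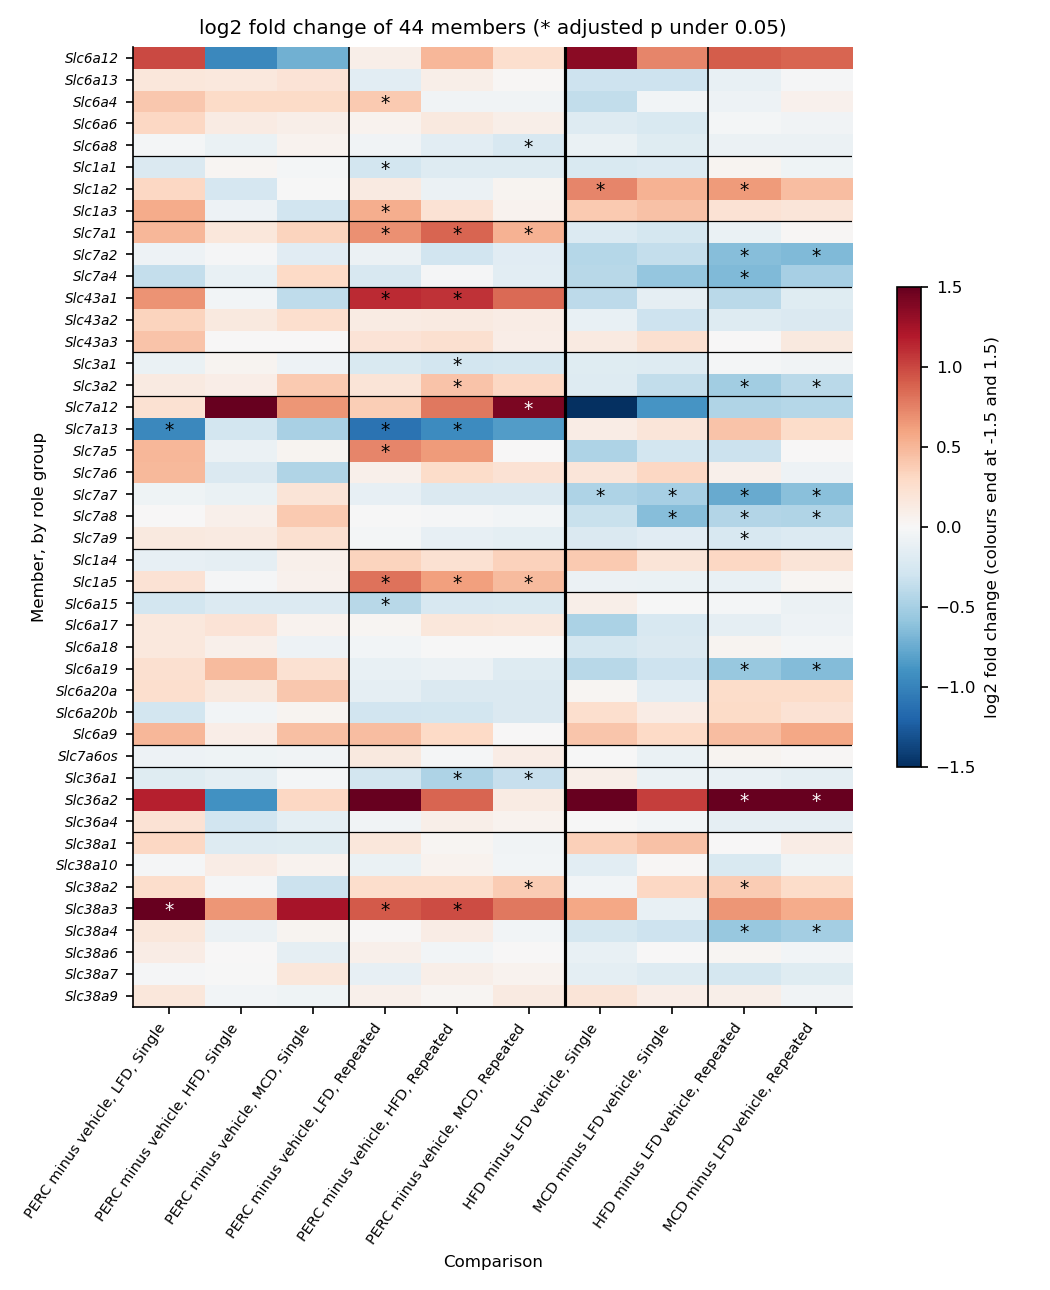
Colour gives the log2 fold change of each of the 44 members (rows, by role group) in the 6 PERC and 4 diet comparisons (columns), and an asterisk marks an adjusted p under 0.05. After repeated PERC dosing Slc1a5 and Slc7a1 carry asterisks in all 3 diets, and in the diet columns Slc7a7 carries one in all 4.

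Slc1a5 and Slc7a1 were higher after repeated PERC in all 3 diets. Slc1a5, the sodium-dependent exchanger of glutamine and other neutral amino acids (ASCT2, chr7:16781340-16798274, plus strand, GRCm38), had a lowest, median and highest value of 50.3, 74.8 and 117 CPM in LFD PERC libraries, against 40.3, 44.7 and 52.4 CPM in LFD vehicle libraries. In HFD mice these values were 50.9, 61.6 and 77.9 CPM with PERC and 34.2, 40.5 and 47.96 CPM with vehicle. In MCD mice they were 50.1, 64.2 and 79.6 CPM with PERC and 40.99, 44.8 and 51.3 CPM with vehicle. On HFD every PERC library lay above every vehicle library. On LFD 8 of 9 PERC libraries did, the exception being the library labelled replicate 4, and on MCD 6 of 8 did. The log2 fold change of Slc1a5 was 0.81 (SE 0.12, adjusted p = 9.89e-06) on LFD, 0.62 (SE 0.12, adjusted p = 2.33e-04) on HFD and 0.47 (SE 0.12, adjusted p = 0.0111) on MCD. Without the library labelled LFD replicate 4 the LFD value was 0.88 (SE 0.11, adjusted p = 2.55e-07). Within each of the 5 sequencing lanes the PERC mean was higher in all 3 diets, by a log2 ratio of 0.37 to 1.16 on LFD, 0.29 to 1.06 on HFD and 0.34 to 0.76 on MCD.

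Slc7a1, the cationic amino acid transporter that carries arginine and lysine into cells (chr5:148327410-148399904, minus strand), is the member whose window opens the promoter lines above. Its lowest, median and highest values were 15.8, 21.97 and 34.04 CPM in LFD PERC libraries and 11.6, 15.3 and 16.4 CPM in LFD vehicle libraries. On HFD they were 18.2, 25.2 and 31.8 CPM with PERC and 8.17, 13.1 and 17.2 CPM with vehicle. The HFD groups did not overlap, and on LFD the PERC libraries other than the one labelled replicate 4 all lay above the vehicle libraries. On MCD the values were 14.96, 20.4 and 30.5 CPM with PERC and 12.4, 13.8 and 18.3 CPM with vehicle, with 6 of 8 PERC libraries above the vehicle range. For Slc7a1 the log2 fold change was 0.69 (SE 0.13, adjusted p = 7.64e-04) on LFD, 0.87 (SE 0.13, adjusted p = 9.49e-06) on HFD and 0.52 (SE 0.14, adjusted p = 0.0158) on MCD, and 0.75 (SE 0.13, adjusted p = 9.58e-05) on LFD without the doubted library. The MCD call rested on MCD PERC replicate 7, without which its adjusted p was 0.0556. Within lanes Slc7a1 was higher with PERC in all 5, in each diet.

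**Figure D3:**
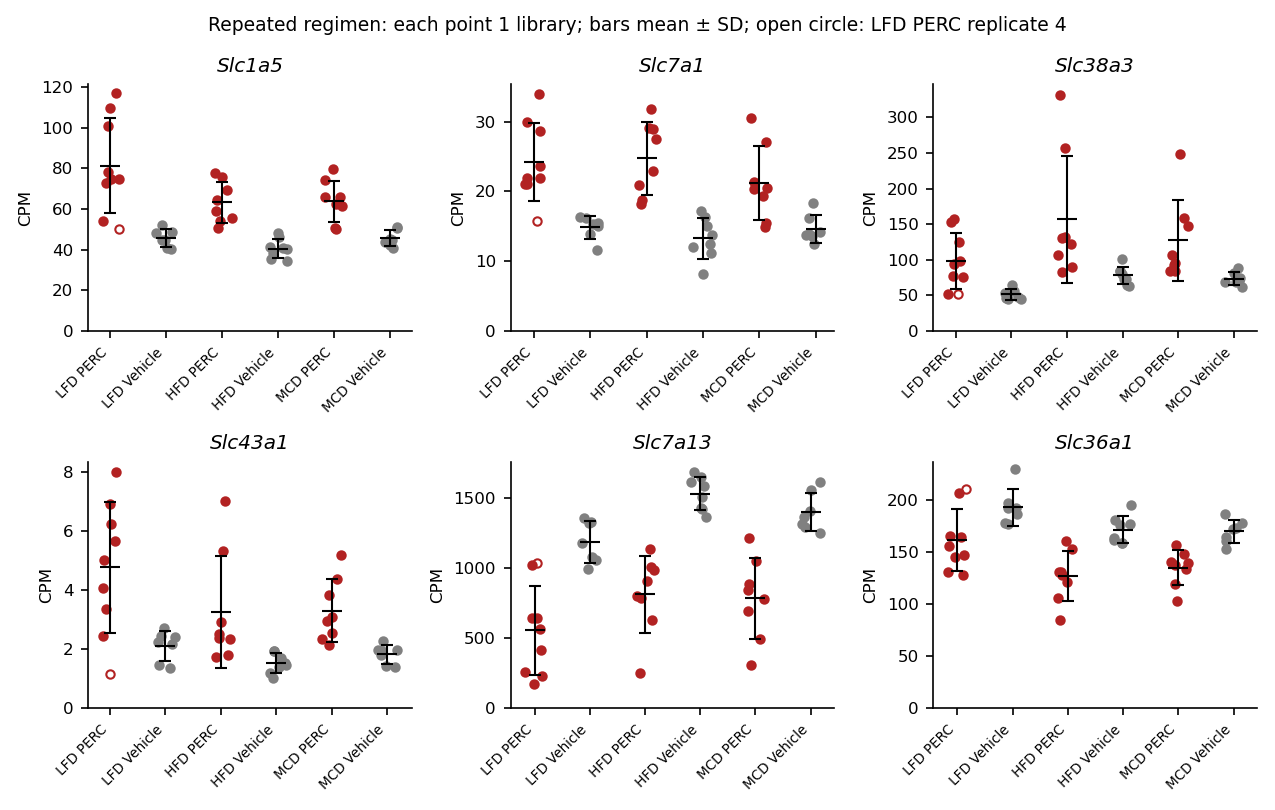
CPM of 6 members in each repeated-regimen library, PERC (red) left of vehicle (grey) within each diet, with mean ± SD as bars and the library labelled LFD PERC replicate 4 as an open circle. On HFD every PERC library lies above the vehicle libraries for Slc1a5 and Slc7a1 and below them for Slc7a13.

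On LFD the light chain Slc7a5 (LAT1), which carries leucine and other large neutral amino acids, had a lowest, median and highest value of 2.92, 4.18 and 10.5 CPM with PERC and 1.99, 3.47 and 4.33 CPM with vehicle. The groups overlapped, with 4 of 9 PERC libraries above the vehicle range. Slc7a5 was called on LFD, at a log2 fold change of 0.73 (SE 0.22, adjusted p = 0.0317), and 0.79 (SE 0.22, adjusted p = 0.0151) without the doubted library. On HFD its values were 2.28, 3.94 and 6.10 CPM with PERC and 1.72, 2.38 and 3.78 CPM with vehicle, and on MCD 1.79, 3.08 and 6.002 CPM with PERC and 2.48, 2.999 and 4.63 CPM with vehicle. These groups overlapped too, and Slc7a5 did not pass, at 0.64 (SE 0.23, adjusted p = 0.0641) on HFD and 0.01 (SE 0.23, adjusted p = 0.991) on MCD. The LFD call of Slc7a5 was lost in 7 of the 16 fits that each left out 1 library (PERC replicates 1 and 8, vehicle replicates 1 to 4 and 6), with an adjusted p of up to 0.119.

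Its heavy chain partner Slc3a2 (4F2hc) had 175, 220.2 and 304 CPM in HFD PERC libraries (lowest, median and highest), against 137.4, 162 and 179 CPM in HFD vehicle libraries, and 6 of 8 PERC libraries lay above the vehicle range. On LFD the values were 204, 262 and 352 CPM with PERC and 205, 235 and 283 CPM with vehicle. On MCD they were 157, 210.0 and 355 CPM with PERC and 158, 182 and 195 CPM with vehicle, and the highest PERC value belonged to MCD PERC replicate 7, the library on which the Slc7a1 call in that diet rested. Slc3a2 rose on HFD, by a log2 fold change of 0.43 (SE 0.11, adjusted p = 0.00633). It did not pass on LFD, at 0.20 (SE 0.11, adjusted p = 0.304) (adjusted p = 0.251 without the doubted library), or on MCD, at 0.31 (SE 0.11, adjusted p = 0.102). The HFD vehicle libraries in this comparison also enter the diet comparison below, in which Slc3a2 was lower on HFD.

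Slc38a2, the sodium-coupled neutral amino acid carrier that cells induce when amino acids are scarce (SNAT2), was called on MCD. Its lowest, median and highest values there were 119, 147.99 and 218 CPM with PERC and 99.2, 113 and 142.7 CPM with vehicle, and 5 of 8 PERC libraries lay above the vehicle range. On HFD they were 132, 139.9 and 200.1 CPM with PERC and 102, 119 and 169 CPM with vehicle, and on LFD 92.6, 114 and 156 CPM with PERC and 81.3, 98.7 and 121 CPM with vehicle. The groups overlapped in each diet. The log2 fold change of Slc38a2 was 0.38 (SE 0.10, adjusted p = 0.0203) on MCD, 0.26 (SE 0.10, adjusted p = 0.0944) on HFD and 0.27 (SE 0.10, adjusted p = 0.103) on LFD. The MCD call was lost without MCD vehicle replicate 2 or without MCD PERC replicate 7, at an adjusted p of up to 0.0675.

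Slc1a4 (ASCT1), which carries alanine, serine and cysteine, and the glycine transporter Slc6a9 passed in no diet. Slc1a4 had 33.4, 43.7 and 55.8 CPM in LFD PERC libraries (lowest, median and highest) and 30.5, 34.1 and 37.2 CPM in LFD vehicle libraries. On HFD it had 31.6, 48.8 and 64.8 CPM with PERC and 37.2, 39.5 and 46.7 CPM with vehicle, and on MCD 32.6, 49.3 and 64.02 CPM with PERC and 31.2, 36.8 and 47.9 CPM with vehicle. The PERC medians were above the vehicle medians in all 3 diets, and the ranges overlapped. Its log2 fold change was 0.34 (SE 0.11, adjusted p = 0.0591) on LFD, 0.23 (SE 0.11, adjusted p = 0.221) on HFD and 0.35 (SE 0.12, adjusted p = 0.0682) on MCD. Slc6a9 had 21.2, 29.4 and 52.5 CPM in LFD PERC and 19.2, 21.9 and 28.1 CPM in LFD vehicle libraries. On HFD Slc6a9 had 25.3, 35.6 and 56.2 CPM with PERC and 26.2, 30.5 and 37.2 CPM with vehicle, and on MCD 22.3, 33.0 and 46.3 CPM with PERC and 27.2, 33.1 and 43.1 CPM with vehicle. Those ranges overlapped in each diet, and the log2 fold change was 0.46 (SE 0.17, adjusted p = 0.094), 0.30 (SE 0.17, adjusted p = 0.302) and 0.01 (SE 0.17, adjusted p = 0.991) on LFD, HFD and MCD. Without the doubted library both passed on LFD: Slc1a4 at 0.37 (SE 0.11, adjusted p = 0.028) and Slc6a9 at 0.52 (SE 0.17, adjusted p = 0.0393).

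The ATF4-linked list held 9 transporters, of which 7 are members and Slc7a3 and Slc7a11 lay below the level minimum. Of the 9, 4 were called higher on LFD, 3 on HFD and 3 on MCD after repeated PERC, and none lower, with median log2 fold changes of 0.61, 0.52 and 0.35. Higher calls made up 4.48%, 4.97% and 2.72% of all genes on these diets. Without the library labelled LFD replicate 4, 7 of the 9 were called higher on LFD, and 1054 of all genes were, in place of 655. That library was doubted in part for its low Asns, an ATF4 target, so the rise in these calls is no separate evidence on the list. Slc7a11, the cystine and glutamate exchanger xCT, had a mean of 0.427 CPM over all libraries and rose on LFD with all libraries kept, at 1.96 (SE 0.48, adjusted p = 0.00879). The calls were Slc1a5, Slc7a1, Slc7a5 and Slc7a11 on LFD, Slc1a5, Slc7a1 and Slc3a2 on HFD, and Slc1a5, Slc7a1 and Slc38a2 on MCD. Of 24 ATF4 response genes that are not transporters, 12, 14 and 13 were called higher on LFD, HFD and MCD and none lower (12 on LFD also without that library), Asns among them with log2 fold changes of 3.03 (SE 0.34), 2.62 (SE 0.33) and 2.37 (SE 0.34). These lists were chosen with earlier results of these data known, so their counts are a description.

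Among the basolateral transporters Slc38a3 stood out after PERC. Slc38a3 (SNAT3, chr9:107650634-107669530, minus strand) moves glutamine across the basolateral side of the proximal tubule and is known to rise in acidosis, when the tubule makes ammonia. After 5 doses its lowest, median and highest values were 51.5, 94.3 and 158 CPM with PERC and 44.5, 48.1 and 64.2 CPM with vehicle on LFD. On HFD they were 82.96, 126.4 and 332 CPM with PERC and 63.7, 76.8 and 100.3 CPM with vehicle, and on MCD 84.2, 101 and 248 CPM with PERC and 61.4, 70.3 and 88.7 CPM with vehicle. The ranges overlapped at their edges in each diet, with 7 of 9, 6 of 8 and 6 of 8 PERC libraries above the vehicle range on LFD, HFD and MCD. The log2 fold change was 0.92 (SE 0.24, adjusted p = 0.0154) on LFD and 0.98 (SE 0.24, adjusted p = 0.00523) on HFD. On MCD it was 0.79 (SE 0.25, adjusted p = 0.0512) and did not pass. On LFD without the doubted library it was 1.002 (SE 0.24, adjusted p = 0.00442). Within lanes Slc38a3 was higher with PERC in all 5, in each diet.

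Slc38a3 was also the member with the largest called change after a single dose. On LFD its values were 108, 102, 252 and 75.4 CPM in the 4 PERC libraries and 47.99, 46.7, 34.03, 40.2 and 49.4 CPM in the 5 vehicle libraries. The groups did not overlap, and the third PERC library, replicate 4, stood far above the others. The log2 fold change was 1.63 (SE 0.25, adjusted p = 0.00235), and the call held with each library left out in turn, at an adjusted p of up to 0.0119 and a log2 fold change of 1.08 to 1.84. Within the 3 lanes of the single regimen Slc38a3 was higher with PERC in all 3, in each diet. On HFD the values were 113, 114, 91.3, 99.0 and 76.8 CPM with PERC and 55.4, 62.5, 80.1 and 55.02 CPM with vehicle. On MCD they were 110.2, 79.4, 81.1 and 104 CPM with PERC and 45.9, 44.7 and 30.2 CPM with vehicle. The MCD groups did not overlap, and on HFD 4 of 5 PERC libraries lay above the vehicle range. Neither passed, at 0.66 (SE 0.26, adjusted p = 1) on HFD and 1.24 (SE 0.30, adjusted p = 0.2) on MCD.

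Slc43a1 (LAT3), a uniporter of branched-chain amino acids, had a lowest, median and highest value of 1.16, 5.03 and 7.99 CPM with PERC and 1.37, 2.22 and 2.699 CPM with vehicle on LFD after 5 doses. The lowest PERC value was that of the library labelled replicate 4, and 7 of 9 PERC libraries lay above the vehicle range. On HFD its values were 1.74, 2.45 and 6.999 CPM with PERC and 1.02, 1.49 and 1.94 CPM with vehicle, and on MCD 2.15, 3.01 and 5.20 CPM with PERC and 1.40, 1.92 and 2.28 CPM with vehicle. It rose on LFD, by a log2 fold change of 1.12 (SE 0.28, adjusted p = 0.00798), or 1.27 (SE 0.25, adjusted p = 4.09e-04) without that library, and on HFD, by 1.08 (SE 0.28, adjusted p = 0.00999). The HFD call was lost without HFD PERC replicate 7, at an adjusted p of 0.0698. On MCD Slc43a1 was at 0.85 (SE 0.29, adjusted p = 0.0778) and did not pass. The related Slc43a2 (LAT4), the basolateral uniporter of the tubule, and Slc43a3, a purine nucleobase transporter, passed in no comparison.

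The most abundant member fell. Slc7a13 (chr4:19818725-19842218, plus strand) pairs with the heavy chain Slc3a1 in the S3 segment, the last part of the proximal tubule. After 5 doses its lowest, median and highest values on LFD were 175, 566 and 1035 CPM with PERC and 991, 1178 and 1355 CPM with vehicle. On HFD they were 247, 851 and 1135 CPM with PERC and 1367, 1544 and 1683 CPM with vehicle, and on MCD 305, 809 and 1214 CPM with PERC and 1249, 1367 and 1612 CPM with vehicle. Every HFD and every MCD PERC library lay below all vehicle libraries of its diet. On LFD 7 of 9 PERC libraries did, and the other 2 were replicate 5 and the library labelled replicate 4. The log2 fold change of Slc7a13 was -1.10 (SE 0.27, adjusted p = 0.00862) on LFD, -0.94 (SE 0.27, adjusted p = 0.0201) on HFD and -0.84 (SE 0.28, adjusted p = 0.0716) on MCD, where it did not pass. Without the doubted library the LFD value was -1.28 (SE 0.27, adjusted p = 0.0011). The HFD call was lost without HFD PERC replicate 6, which had the lowest value, at an adjusted p of 0.0547. Within every lane Slc7a13 was lower with PERC in each diet, by log2 ratios of -2.19 to -0.70 on LFD, -1.64 to -0.48 on HFD and -1.82 to -0.40 on MCD.

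A single PERC dose gave the same direction. On LFD Slc7a13 had 373, 843, 488 and 841 CPM with PERC and 1082, 1209, 1162, 1151 and 1544 CPM with vehicle, with no overlap and a log2 fold change of -0.97 (SE 0.19, adjusted p = 0.0145). This call was lost without LFD PERC replicate 1, LFD PERC replicate 4 or LFD vehicle replicate 5, at an adjusted p of up to 0.127. On HFD the values were 1011, 957, 1028, 1183 and 1099 CPM with PERC and 1216, 1328, 1422 and 1212 CPM with vehicle. On MCD they were 1016, 874, 1066 and 975 CPM with PERC and 1136, 1202 and 1808 CPM with vehicle. Neither pair of groups overlapped, and neither difference passed, at -0.27 (SE 0.19, adjusted p = 1) on HFD and -0.48 (SE 0.22, adjusted p = 0.968) on MCD.

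Other S3 markers moved beside Slc7a13. The lowest, median and highest summed level of 6 S3 markers, none at 0, was 1449, 2332 and 4082 CPM in LFD repeated PERC libraries and 3155, 3717 and 4378 CPM in LFD repeated vehicle libraries. It was 1650.3, 3413 and 4391 CPM with PERC and 4237, 4666 and 5411 CPM with vehicle on HFD, and 2165, 3329 and 4586 CPM with PERC and 3751, 5222 and 5509.7 CPM with vehicle on MCD. Of the 6, the test called 1 lower on LFD (3 without the doubted library), 2 on HFD and 2 on MCD. The anion transporter Slc22a7 was called in each, at log2 fold changes of -2.002 (SE 0.59), -2.32 (SE 0.62) and -3.14 (SE 0.66). Its part in the Slc7a13 result, and that of the other S3 markers, was not tested. After a single dose the S3 sum was 2155, 3038 and 3711 CPM with PERC and 3502, 4446 and 4877 CPM with vehicle on LFD. It was 4075, 4995 and 5141 CPM against 5207 (median) with vehicle on HFD, and 3714, 4393 and 4618 CPM against 5233 (median) on MCD. The lowest sum on LFD was that of PERC replicate 1, which also had the lowest Slc7a13. Markers of S1 and S2 summed to 9266, 10352 and 12898 CPM with PERC and 10829, 12251 and 13057 CPM with vehicle on LFD, with 1 of 6 called lower, and none was called on HFD or MCD.

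**Figure D4:**
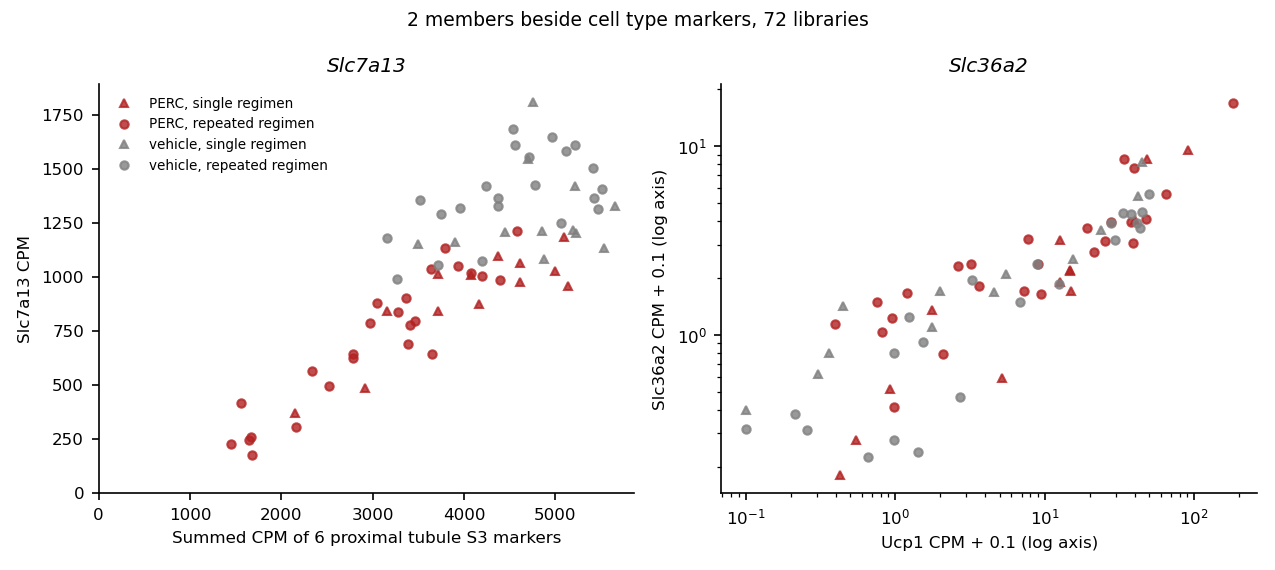
Left, Slc7a13 (CPM) against the summed CPM of 6 proximal tubule S3 markers, and right, Slc36a2 against the brown fat gene Ucp1 (CPM + 0.1, log axes), 1 point for each of the 72 libraries, red for PERC and grey for vehicle, triangles for the single and circles for the repeated regimen. The libraries lowest in S3 markers are PERC libraries low in Slc7a13, and libraries with little Ucp1 have little Slc36a2 in both treatments.

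On the brush border, Slc1a1 (EAAT3, chr19:28835049-28913960, plus strand), which takes up glutamate and aspartate, had a lowest, median and highest value of 304, 387 and 430.0 CPM with PERC and 422, 441 and 465 CPM with vehicle on LFD, and 8 of 9 PERC libraries lay below the vehicle range. On HFD its values were 338, 394 and 433 CPM with PERC and 421, 434 and 483 CPM with vehicle, and on MCD 339, 355 and 439 CPM with PERC and 395, 418 and 438 CPM with vehicle. On both of these diets 7 of 8 PERC libraries lay below the vehicle range. Slc1a1 fell on LFD, at a log2 fold change of -0.27 (SE 0.07, adjusted p = 0.00634), or -0.31 (SE 0.06, adjusted p = 9.55e-04) without the doubted library. On HFD and MCD it did not pass, at -0.19 (SE 0.07, adjusted p = 0.0545) and -0.19 (SE 0.07, adjusted p = 0.09).

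The heavy chain Slc3a1 fell on HFD, with a log2 fold change of -0.28 (SE 0.08, adjusted p = 0.0226), a call lost without HFD PERC replicate 1, HFD PERC replicate 6 or HFD vehicle replicate 1. Its cystine light chain Slc7a9, mutated with Slc3a1 in human cystinuria, was at -0.03 (SE 0.07), -0.12 (SE 0.07) and -0.14 (SE 0.07) on LFD, HFD and MCD and was not called. Slc6a15, a carrier of branched-chain amino acids and proline, fell on LFD at -0.42 (SE 0.12, adjusted p = 0.0258), and -0.45 (SE 0.12, adjusted p = 0.0113) without the doubted library. With PERC replicate 7 or 8 or vehicle replicate 2 or 3 left out in its place, the adjusted p of Slc6a15 reached 0.0713. Of the 9 brush border genes listed, 2 were called lower on LFD, 2 on HFD and none on MCD, and none higher. Lower calls made up 2.43%, 4.22% and 2.38% of all genes on these diets. Without the doubted library the LFD count was 4 lower and 1 higher, Slc6a20b and Slc3a1 being added on the lower side and Slc36a2 on the higher. Of all 14597 genes in that fit, 744 were called lower and 1054 higher. The name-only match Slc7a6os also passed then, at 0.19 (SE 0.05, adjusted p = 0.0146). Slc6a18, Slc6a19, Slc6a20a and Slc6a20b passed in no PERC comparison as the samples were labelled.

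Slc36a1 (PAT1), a proton-coupled carrier that exports small amino acids from lysosomes, fell on 2 diets. Its lowest, median and highest values were 85.1, 129.7 and 161 CPM with PERC and 159, 170.2 and 196 CPM with vehicle on HFD. On MCD they were 103, 138.9 and 157 CPM with PERC and 154, 173 and 187 CPM with vehicle, and on LFD 127.8, 156 and 211 CPM with PERC and 177, 193 and 230.0 CPM with vehicle. In each diet 7 PERC libraries lay below the vehicle range, of 8, 8 and 9. For Slc36a1 the log2 fold change was -0.47 (SE 0.10, adjusted p = 8.72e-04) on HFD, -0.34 (SE 0.10, adjusted p = 0.0339) on MCD and -0.27 (SE 0.10, adjusted p = 0.0776) on LFD. Without the doubted library Slc36a1 passed on LFD too, at -0.34 (SE 0.09, adjusted p = 0.0138). The MCD call was lost in 7 of 15 fits that left out 1 library (PERC replicates 6 to 8, vehicle replicates 2 to 4 and 7), at an adjusted p of up to 0.09. The other lysosomal members Slc36a4, Slc38a7 and Slc38a9 passed in no comparison.

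The remaining PERC calls were single. On LFD Slc1a3, a glutamate transporter (EAAT1), rose at 0.54 (SE 0.15, adjusted p = 0.0173), or 0.63 (SE 0.14, adjusted p = 0.00156) without the doubted library, and was lost without LFD vehicle replicate 7 at an adjusted p of 0.0581. Slc6a4, the serotonin transporter, rose at 0.39 (SE 0.12, adjusted p = 0.0403), or 0.44 (SE 0.12, adjusted p = 0.0111) without the doubted library. Its call was lost in 9 of 16 fits that left out 1 library (PERC replicates 1 and 6 to 8, vehicle replicates 3 to 7). On MCD Slc7a12, a light chain of neutral amino acids, had a lowest, median and highest value of 28.8, 78.1 and 156 CPM with PERC and 7.33, 33.0 and 58.4 CPM with vehicle, overlapping ranges, and rose at 1.42 (SE 0.40, adjusted p = 0.0267). That call was lost in 6 of 15 fits (PERC replicates 1, 2 and 8, vehicle replicates 2, 3 and 6). It was also lost with lane as a covariate, at an adjusted p of 0.0622. The creatine transporter Slc6a8 fell on MCD at -0.24 (SE 0.07, adjusted p = 0.0262), also lost in 6 of 15 fits (PERC replicates 1, 3, 6 and 8, vehicle replicates 4 and 7).

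Markers of fat tissue moved with some of these comparisons. The 10 adipocyte markers, none at 0 in any group, had a lowest, median and highest summed level of 104, 164 and 461 CPM in LFD repeated PERC libraries and 47.5, 97.7 and 122 CPM in LFD repeated vehicle libraries, and 7 of them were called higher, with or without the doubted library. On HFD the level was 54.01, 161 and 473 CPM with PERC and 32.9, 109.5 and 175 CPM with vehicle, with 2 called higher, and on MCD 88.8, 154 and 193 CPM with PERC and 48.3, 122 and 146.97 CPM with vehicle, with none called. With the marker level as a covariate, 5 members were called on LFD in place of 10. Over all genes, 403 were called in place of 1010, so calls were lost well beyond the members. Slc1a1, Slc1a5, Slc6a15, Slc7a1 and Slc7a13 kept their LFD calls, and Slc1a3, Slc38a3, Slc43a1, Slc6a4 and Slc7a5 lost them, Slc38a3 at an adjusted p of 0.0814 and Slc43a1 at 0.131. Without the doubted library Slc36a2, a carrier also found in brown fat, was called on LFD at 2.31 (SE 0.68, adjusted p = 0.02). In the single regimen LFD PERC replicate 1 had a summed adipocyte level of 530 CPM, the highest of all libraries used. Slc38a3 and Slc7a13 kept their single-dose LFD calls with the marker level as a covariate.

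The 5 macrophage markers summed to 73.7, 92.8 and 124.8 CPM with PERC and 119.98, 128.2 and 132 CPM with vehicle on LFD after 5 doses. On HFD they summed to 87.7, 106 and 135.4 CPM with PERC and 113, 125.004 and 144.3 CPM with vehicle, and on MCD to 99.5, 104 and 124 CPM with PERC and 130.1, 137.9 and 174 CPM with vehicle. The test called 1 of the 5 lower in each diet, and on LFD without the doubted library 1 lower and 1 higher. Their part in the transporter results was not tested.

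After a single dose few members passed. On LFD 2 were called, where 0.749% of all genes were: Slc38a3 higher (0.532% of all genes) and Slc7a13 lower (0.217%). The count was 1 without LFD PERC replicate 1, LFD PERC replicate 4 or LFD vehicle replicate 5, and 4 without LFD PERC replicate 3. On HFD none was called (0.007% of all genes), and DESeq2 called none. At an unadjusted p under 0.05 there were 3 members and 577 of 14280 genes. On MCD edgeR also called none (0.028% of all genes), and DESeq2 called 1, beside 43 of all genes. At the unadjusted threshold there were 6 members and 708 of 14280 genes. Slc1a5, called after 5 doses in each diet, had 57.7, 52.1, 57.2 and 45.01 CPM with PERC and 56.2, 47.8, 39.9, 41.7 and 40.9 CPM with vehicle on LFD after 1 dose. On HFD it had 41.5, 42.1, 46.8, 39.3 and 32.7 CPM with PERC and 49.4, 40.2, 37.3 and 39.3 CPM with vehicle. On MCD it had 44.8, 39.7, 46.7 and 41.3 CPM with PERC and 49.3, 44.7 and 31.5 CPM with vehicle. The groups overlapped in each diet, with log2 fold changes of 0.22 (SE 0.12), -0.02 (SE 0.12) and 0.06 (SE 0.14). Slc7a1 had 28.9, 22.6, 21.7 and 33.6 CPM with PERC and 23.7, 23.8, 12.2, 15.9 and 18.3 CPM with vehicle on LFD, at 0.49 (SE 0.19, adjusted p = 0.343). On HFD Slc7a1 ran over 14.2 to 21.4 CPM with PERC and 12.4 to 20.8 CPM with vehicle, and on MCD over 15.3 to 22.3 CPM with PERC and 10.2 to 20.1 CPM with vehicle. Neither Slc38a3 nor Slc7a13 is on the ATF4-linked list, of which 8 of 9 genes were tested in the single regimen (Slc7a11 was not), and Asns was called on LFD at 1.92 (SE 0.27).

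The design also asks whether diet or the number of doses altered the PERC effect, and edgeR called no member in any of these 7 differences. For the PERC effect on HFD minus LFD, single dosing gave 7 members and 791 of 14280 genes at an unadjusted p under 0.05. Repeated dosing gave 3 members and 805 of 14614 genes at that p. After adjustment, 0.0% and 0.0137% of all genes were called. For MCD minus LFD there were 8 members and 600 genes at that unadjusted p in the single regimen, and 6 members and 944 genes in the repeated regimen. At the adjusted threshold 0.0% of genes were called in both. DESeq2 called no member in any of the 7 either. The difference closest to the threshold among the repeated-regimen ones was that of Slc6a4, at -0.45 (SE 0.17, adjusted p = 0.615) for MCD minus LFD. Between regimens, repeated minus single, 5, 10 and 10 members had an unadjusted p under 0.05 on LFD, HFD and MCD. Of all 15139 genes, 688, 1460 and 1243 did. At the adjusted threshold 0.0132%, 0.132% and 0.0132% of genes were called. Slc1a5 was nearest, with a difference of 0.63 (SE 0.18, adjusted p = 0.149) on HFD and 0.59 (SE 0.19, adjusted p = 0.753) on LFD. For Slc38a2 on MCD it was 0.69 (SE 0.20, adjusted p = 0.252). Doses, time of death and sequencing lanes differ together between the regimens and cannot be told apart. With the doubted library left out, no member was called in the differences that involve LFD either.

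In vehicle mice with repeated dosing 11 members were called on HFD relative to LFD, where 6.64% of all genes were, 8 of them lower (2.78% of all genes) and 3 higher (3.86%). On MCD 7 were called, where 3.48% of all genes were, 6 of them lower (1.37%) and 1 higher (2.11%). All 7 members called on MCD were also called on HFD, but both comparisons share the LFD vehicle libraries. The members' median log2 difference was -0.05 for both diets, and that of all genes 0.00 on HFD and -0.01 on MCD.

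Slc7a7 (y+LAT1, chr14:54369442-54417780, minus strand), the basolateral light chain that exports arginine and lysine and is mutated in human lysinuric protein intolerance, was lower on both diets in both regimens. In the repeated regimen its lowest, median and highest values were 131, 140.2 and 152 CPM on HFD and 130.05, 159 and 173 CPM on MCD, against 206, 248 and 287 CPM on LFD. After single dosing it had 146.6, 148.2, 136.8 and 156 CPM on HFD and 157, 137.2 and 147.5 CPM on MCD, against 191, 193, 226, 217 and 216 CPM on LFD. No HFD or MCD vehicle library reached the LFD range in either regimen. The log2 difference was -0.76 (SE 0.12, adjusted p = 1.70e-05) for HFD and -0.62 (SE 0.12, adjusted p = 0.00105) for MCD in the repeated regimen. With single dosing the difference was -0.47 (SE 0.10, adjusted p = 0.0142) and -0.49 (SE 0.11, adjusted p = 0.0451). In the single regimen the HFD call was lost without HFD vehicle replicate 3 or 4, and the MCD call in 6 of 8 fits (MCD vehicle replicates 2, 3 and 5, LFD vehicle replicates 3 to 5), at an adjusted p of up to 0.262. Within lanes Slc7a7 was lower in all 5 lanes of the repeated and all 3 of the single regimen, on both diets.

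Its partner heavy chain Slc3a2 (chr19:8706882-8723369, minus strand) and the second basolateral light chain, Slc7a8, went the same way. Slc3a2 had a lowest, median and highest value of 137.4, 162 and 179 CPM on HFD and 158, 182 and 195 CPM on MCD, against 205, 235 and 283 CPM on LFD, with no overlap. Its log2 difference was -0.52 (SE 0.11, adjusted p = 0.00159) on HFD and -0.40 (SE 0.11, adjusted p = 0.038) on MCD, and the MCD call was lost in 8 of 14 fits that left out 1 library (MCD vehicle replicates 3, 5, 6 and 8, LFD vehicle replicates 1 and 5 to 7). Slc7a8 (LAT2, chr14:54722209-54781946, minus strand), an exchanger of neutral amino acids, had 191, 213 and 233 CPM on HFD and 178, 216 and 243 CPM on MCD, against 245, 289.8 and 351 CPM on LFD. The HFD and MCD ranges lay below the LFD range, and the log2 differences were -0.44 (SE 0.09, adjusted p = 9.97e-04) and -0.46 (SE 0.09, adjusted p = 0.00203). Slc7a8 of single-regimen libraries was 239, 266, 247 and 285 CPM on HFD and 229, 203 and 212 CPM on MCD, against 335, 284, 342, 361 and 354 CPM on LFD. It passed on MCD, at -0.63 (SE 0.11, adjusted p = 0.00888), though not without MCD vehicle replicate 2 or 3 (adjusted p up to 0.0679), and not on HFD, at -0.33 (SE 0.10, adjusted p = 0.11). Of the 6 basolateral genes listed, 3 were called lower on each diet in the repeated regimen, and 1 on HFD and 2 on MCD in the single regimen.

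**Figure D5:**
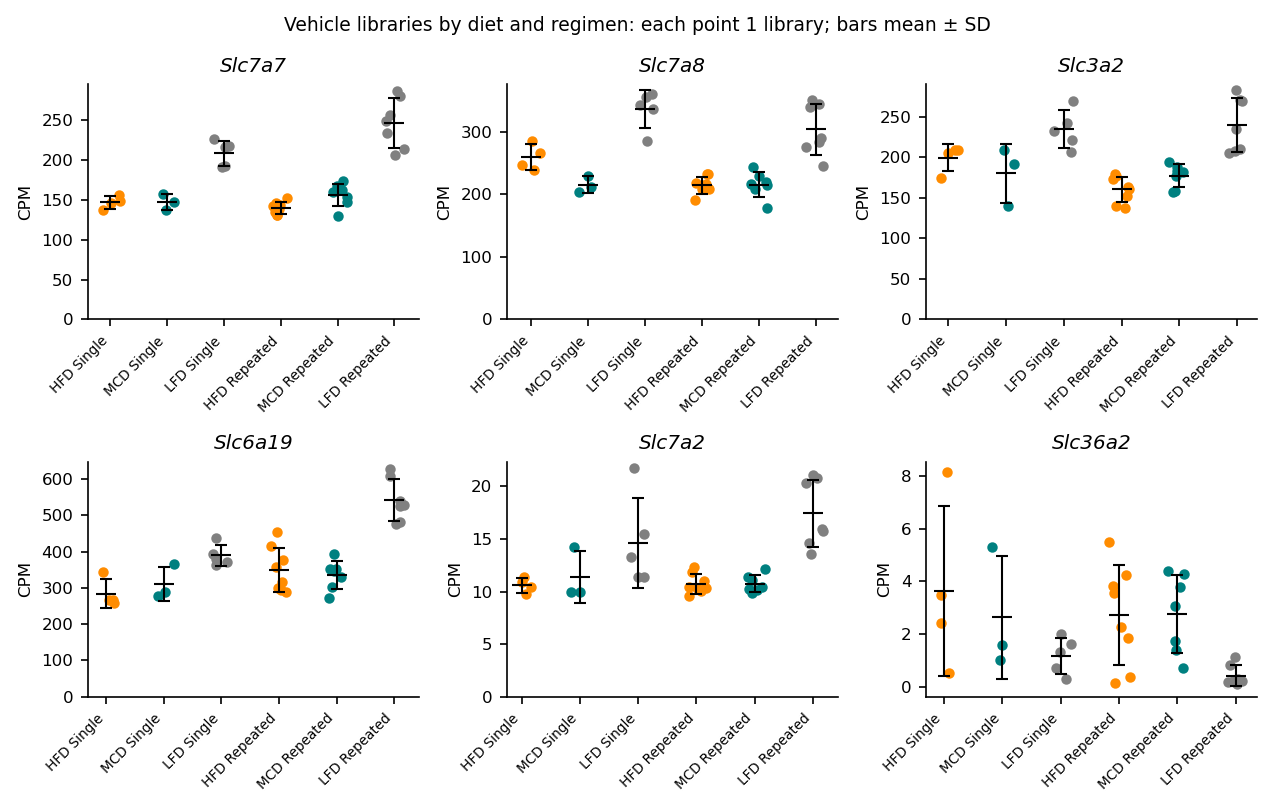
CPM of 6 members in each vehicle library, HFD (orange) and MCD (teal) left of LFD (grey) within each regimen, with mean ± SD as bars. In the repeated regimen the HFD and MCD libraries lie below the LFD libraries for Slc7a7, Slc7a8, Slc3a2, Slc6a19 and Slc7a2, and most lie above them for Slc36a2.

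On the brush border side Slc6a19 was lower. Slc6a19 (B0AT1, chr13:73679745-73704865, minus strand), the main carrier of filtered neutral amino acids and the gene of human Hartnup disorder, had a lowest, median and highest value of 289, 337 and 453 CPM on HFD and 273, 347 and 394 CPM on MCD, against 475, 528 and 628 CPM on LFD. The ranges did not overlap, and the log2 difference was -0.57 (SE 0.11, adjusted p = 4.89e-04) on HFD and -0.65 (SE 0.11, adjusted p = 2.54e-04) on MCD. In the single regimen Slc6a19 had 258, 267, 267 and 343 CPM on HFD and 288, 278 and 365 CPM on MCD, against 379.7, 362, 394, 438 and 371 CPM on LFD. The HFD libraries lay below the LFD range, and the differences did not pass, at -0.41 (SE 0.16, adjusted p = 0.293) and -0.31 (SE 0.18, adjusted p = 0.905). Its tandem neighbour Slc6a18, a related carrier of neutral amino acids (chr13:73661752-73678023, minus strand), was at 0.04 (SE 0.08) on HFD and -0.03 (SE 0.08) on MCD in the repeated regimen and was not called. Slc7a9 fell on HFD, at -0.24 (SE 0.07, adjusted p = 0.0317), a call lost in 7 of 15 fits that left out 1 library (HFD vehicle replicates 1, 5, 7 and 8, LFD vehicle replicates 1, 2 and 7). The opposite-strand symbol Slc6a19os, below the level minimum at 0.770 CPM, was called lower on HFD at -1.02 (SE 0.28, adjusted p = 0.0179), again with the strand setting unknown.

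Among cationic transporters Slc7a2 (CAT2, chr8:40862396-40922308, plus strand) was lower on both diets. Its lowest, median and highest values were 9.56, 10.4 and 12.4 CPM on HFD and 9.89, 10.4 and 12.1 CPM on MCD, against 13.6, 15.98 and 21.1 CPM on LFD, with no overlap. The log2 difference was -0.64 (SE 0.10, adjusted p = 2.81e-05) on HFD and -0.66 (SE 0.11, adjusted p = 6.98e-05) on MCD. Slc7a2 of single-regimen libraries was 11.4, 10.4, 9.73 and 10.9 CPM on HFD and 9.95, 9.999 and 14.2 CPM on MCD, against 13.3, 11.4, 15.5, 21.7 and 11.4 CPM on LFD. The HFD libraries again lay below the LFD range, and the differences did not pass, at -0.43 (SE 0.20, adjusted p = 0.425) and -0.36 (SE 0.22, adjusted p = 0.958). Slc7a4, a relative with no established substrate, fell on HFD at -0.66 (SE 0.18, adjusted p = 0.0157). Slc7a1, the member that rose with PERC, was at -0.10 (SE 0.14) and 0.01 (SE 0.14) on HFD and MCD and was not called.

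A pair of SLC38 carriers moved in opposite directions on HFD. Slc38a4 (SNAT4) had a lowest, median and highest value of 3.44, 4.22 and 6.32 CPM on HFD and 3.04, 4.62 and 6.24 CPM on MCD, against 4.56, 6.47 and 9.53 CPM on LFD. The ranges overlapped, and the log2 difference was -0.57 (SE 0.13, adjusted p = 0.00343) on HFD and -0.51 (SE 0.14, adjusted p = 0.0212) on MCD, the second lost without LFD vehicle replicate 1 or 5 or MCD vehicle replicate 6 (adjusted p up to 0.0802). Slc38a2 had 102, 119 and 169 CPM on HFD, against 81.3, 98.7 and 121 CPM on LFD, overlapping ranges, and was higher at 0.39 (SE 0.10, adjusted p = 0.0148). That call was lost without HFD vehicle replicate 4 or LFD vehicle replicate 7, at an adjusted p of up to 0.0562.

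Slc1a2 (EAAT2), a glutamate transporter best known from astrocytes, was higher on HFD in both regimens. In the repeated regimen its lowest, median and highest values were 10.5, 13.5 and 16.7 CPM on HFD and 9.20, 11.8 and 15.3 CPM on MCD, against 5.18, 9.69 and 11.4 CPM on LFD. In the single regimen it had 10.7, 9.81, 14.3 and 14.3 CPM on HFD and 10.7, 9.60 and 12.3 CPM on MCD, against 7.89, 9.97, 7.31, 6.77 and 6.32 CPM on LFD. The ranges overlapped with LFD in both regimens. The log2 difference was 0.64 (SE 0.15, adjusted p = 0.00414) in the repeated and 0.73 (SE 0.17, adjusted p = 0.0203) in the single regimen on HFD, the single-regimen call being lost in 5 of 9 fits (HFD vehicle replicates 4 and 5, LFD vehicle replicates 3 to 5). On MCD it did not pass, at 0.47 (SE 0.15, adjusted p = 0.0801) and 0.52 (SE 0.18, adjusted p = 0.403).

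Slc36a2 (PAT2), a proton-coupled carrier of proline and glycine that is also a surface marker of brown fat cells, had the widest diet differences of the 44 members in the repeated regimen. Its lowest, median and highest values in the repeated regimen were 0.139, 2.91 and 5.48 CPM on HFD and 0.697, 3.06 and 4.38 CPM on MCD, against 0.124, 0.217 and 1.137 CPM on LFD. In the single regimen it had 0.517, 3.49, 8.14 and 2.40 CPM on HFD and 0.999, 1.58 and 5.31 CPM on MCD, against 1.99, 1.61, 0.696, 0.299 and 1.32 CPM on LFD, overlapping ranges that did not pass, at 1.65 (SE 0.97, adjusted p = 0.638) and 1.04 (SE 1.09, adjusted p = 1). In the repeated regimen, of the HFD libraries 6 of 8, and of the MCD libraries 6 of 7, lay above the LFD range. The log2 difference was 2.64 (SE 0.68, adjusted p = 0.0113) on HFD and 2.67 (SE 0.69, adjusted p = 0.0179) on MCD. Ucp1, the uncoupling protein of brown fat, differed in the same libraries by 5.28 (SE 1.13, adjusted p = 0.00188) on HFD and 5.19 (SE 1.144, adjusted p = 0.00442) on MCD. Of the 10 adipocyte markers 6 were called higher on HFD and 5 on MCD. With the adipocyte marker level as a covariate the Slc36a2 differences did not pass, at an adjusted p of 0.738 on HFD and 0.824 on MCD.

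Slc7a13, which fell with PERC, did not pass with diet. Its repeated-regimen vehicle values were 1367, 1544 and 1683 CPM on HFD and 1249, 1367 and 1612 CPM on MCD, against 991, 1178 and 1355 CPM on LFD. Every HFD vehicle library lay above the LFD range, at a log2 difference of 0.43 (SE 0.28, adjusted p = 0.394) on HFD and 0.28 (SE 0.29, adjusted p = 0.781) on MCD.

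The adipocyte covariate left 6 members called on HFD in place of 11 and 3 on MCD in place of 7. Over all genes, 377 were called on HFD in place of 970, and fewer were called on MCD too. Calls were thus lost well beyond the members on both diets. Slc6a19, Slc7a2 and Slc7a7 kept their calls on both diets, and Slc36a2, Slc38a4, Slc3a2 and Slc7a8 lost them on both, Slc7a8 on HFD at an adjusted p of 0.0679. Markers of S1 and S2, the segments where Slc6a19, Slc7a7 and Slc7a8 are most abundant, summed to 10299.8, 10795 and 11252 CPM on HFD (lowest, median and highest) and 9991, 10706 and 11404 CPM on MCD, against 10829, 12251 and 13057 CPM on LFD. Of these 6 markers, 2 were called lower on HFD and 1 on MCD. The lactate carrier Slc5a12 was called on both, at -0.62 (SE 0.12) and -0.70 (SE 0.12). Of the 4 markers of intercalated cells, which lie in the collecting duct, 3 were called lower on each diet. The part of these markers in the transporter results was not tested.

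In the single regimen 2 members were called on HFD relative to LFD, Slc7a7 lower and Slc1a2 higher, where 1.64% of all genes were called. On MCD 2 were, Slc7a7 and Slc7a8, both lower, where 0.476% of all genes were. The count on HFD ran from 0 to 4 and that on MCD from 0 to 2 when 1 library was left out. On HFD it was 0 without HFD vehicle replicate 4, 1 without HFD vehicle replicate 3 or 5 or LFD vehicle replicate 3 or 4, and 4 without LFD vehicle replicate 2. On MCD it was 0 without MCD vehicle replicate 2 or 3, and 1 without MCD vehicle replicate 5 or LFD vehicle replicate 3, 4 or 5.

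The 19 members that were never called include carriers of high level. Slc6a18 stayed within group means of 743 to 1032 CPM over the 12 groups, Slc6a6 within 574 to 844, Slc43a2 within 220.0 to 349 and Slc6a13 within 124.6 to 179.8 CPM. Nearest to a call were Slc1a4 after repeated PERC on LFD, given above, Slc6a9 on MCD against LFD at 0.58 (SE 0.18, adjusted p = 0.0609), Slc38a7, a lysosomal glutamine carrier, on HFD against LFD at -0.27 (SE 0.09, adjusted p = 0.0623), and Slc43a2 after a single PERC dose on LFD at 0.33 (SE 0.09, adjusted p = 0.0649). Of 21 tested amino acid transport genes outside the 7 families, 1 was called on LFD, 4 on HFD and 1 on MCD after repeated PERC. The shares of all genes called were 6.91%, 9.18% and 5.1%. Without the doubted library the LFD count was 2, with Slc25a22, a mitochondrial glutamate carrier, higher at 0.71 (SE 0.24, adjusted p = 0.0461). Tmem27 (collectrin), the partner protein that Slc6a18 and Slc6a19 need at the kidney brush border, fell at -0.45 (SE 0.13, adjusted p = 0.0245) on LFD (-0.50 (SE 0.13, adjusted p = 0.00963) without the doubted library) and -0.44 (SE 0.13, adjusted p = 0.0219) on HFD.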

How the data were processed

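The files the authors deposited hold raw counts, whole numbers by gene symbol, in a separate table for each library. Per the labels' protocols, total RNA of pulverized kidney went into a stranded messenger RNA kit. Per the submitters' processing notes, the tools were TopHat2 2.0.13, HTSeq, DESeq2, Trimmomatic and bcl2fastq 2.17.1.14, with no role or order given, on build GRCm38 (mm10). The authors' annotation and strand setting are not given in the sources used here. Over the libraries used, a median of 53.1% of reads fell in genes, 21.7% had several places in the genome, 22.9% hit no feature, 0.685% were ambiguous and 2.28% unaligned; only reads in genes entered library sizes and tests.

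Of 78 labelled samples in 12 groups, 77 had a file and 1 (MCD repeated vehicle replicate 1) was not analysed here. A minimum of 1000000 counts in genes left out 5 single-regimen libraries with 2267 to 22029 counts (vehicle replicates 1 and 4 and PERC replicate 2 of MCD, PERC replicate 2 of LFD, vehicle replicate 2 of HFD), so 72 were used. Replicate numbers follow accession order and pair nothing. No label says that replicates are separate animals, and p-values then cover only differences among libraries, which may be technical. Of 203 pairs of libraries of 1 group, none agreed within sampling noise (lowest chi-square per gene 6.38). The labels put 9 and 7 libraries in the LFD repeated PERC and vehicle groups, where the series text gives 8 mice in each.

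CPM was computed from the deposited counts. Tests used edgeR 4.0.16 in R 4.3.3: TMM scaling, filterByExpr (14280, 14614 and 15139 genes in the single, repeated and joint fits, all 44 members in each), the robust quasi-likelihood F test with 1 mean per group, and Benjamini-Hochberg adjustment over all genes of the fit. SE was taken as the absolute log2 fold change over the root of F. The fit was tested on simulated counts. Alternatives were DESeq2 1.42.0, RLE size factors, no filter on low counts, lane or adipocyte markers as a covariate, the 5 shallow libraries kept, and each library left out. The joint fit without the library labelled LFD repeated PERC replicate 4 was added after seeing the data. Lanes were read from the file names; the regimens share none. Gene positions and exon lengths are from GENCODE M21 (GRCm38). Library values, or the lowest, median and highest of a group, are given in the comparisons described for members chosen for fuller description. These are the first 14 by smallest p among members called in any of the 10 PERC or diet comparisons, and the ATF4-linked members. Members and lists were chosen with earlier results of these data known.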

Additional observations from a re-analysis of the deposited data

Results flagged for a closer look

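In the 18 members chosen for fuller description, 198 sets of 4 to 9 libraries were screened. The screen looked for a library whose gap to its nearest neighbour took most of the range of its group. The screen picked 14, and chance alone picks about 1 set in 20. MCD repeated PERC replicate 7 stood high in Slc3a2, at 355 CPM with the next library at 227, and in Slc38a2, at 218 with the next at 163. The MCD calls of Slc38a2 and Slc7a1 were lost without it. HFD single vehicle replicate 4 stood low in Slc3a2, at 174 CPM, and high in Slc1a1, at 452.

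In Slc6a19, HFD single vehicle replicate 5 stood high at 343 CPM and LFD single PERC replicate 1 at 624. LFD single vehicle replicate 5 stood high in Slc7a13, at 1544 CPM. MCD repeated PERC replicate 6 stood high in Slc38a3, at 248 CPM. LFD repeated vehicle replicate 7 stood high in Slc36a1, at 230.0 CPM, and HFD repeated PERC replicate 4 in Slc1a2, at 18.8. In Slc1a1 HFD repeated vehicle replicate 1 stood high at 483 CPM and MCD repeated PERC replicate 1 at 439. MCD repeated vehicle replicate 6 stood high in Slc7a5, at 4.63 CPM, and HFD repeated vehicle replicate 4 in Slc38a2, at 169. The causes were not tested. The library labelled LFD repeated PERC replicate 4, which lay at vehicle levels of the PERC response markers, was not picked in any of these members.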

How the results depend on the processing

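No called change of a member reversed under any alternative. Of single member values, 227 of 246 kept their call under the other settings and 607 of 693 with 1 library left out; the rest kept the direction without passing. Counts of members that moved by over 1.5 times were, for PERC against vehicle, 4 with lane as a covariate on LFD single, 1 with DESeq2 on MCD single, 5 with the adipocyte covariate on LFD repeated and 10 with DESeq2 on MCD repeated. Over all genes these fits called 286, 43, 403 and 874, in place of 107, 4, 1010 and 745. For diet against LFD they were 5 with DESeq2 on HFD single, 1 without the low-count filter and 0 with the shallow libraries kept on MCD single, and, with the adipocyte covariate, 6 on HFD repeated and 3 on MCD repeated. In the lane fit on LFD single, the share of higher calls among all genes was 47.6%, against 76 of 107 in the fit without lane. With 1 library left out, the counts for PERC on LFD, HFD and MCD ran from 1 to 4, 0 to 0 and 0 to 0 in the single regimen and from 7 to 17, 6 to 10 and 3 to 9 in the repeated regimen. For diet they ran from 0 to 4 on HFD and 0 to 2 on MCD in the single regimen, and from 9 to 12 and 5 to 7 in the repeated regimen, and all differences between diets or regimens stayed at 0. Shares of all genes are given only for the fit without the library labelled LFD repeated PERC replicate 4. The other counts with 1 library left out cannot be set against a background. On LFD single, the count was 1 without PERC replicate 1, PERC replicate 4 or vehicle replicate 5 and 4 without PERC replicate 3. On MCD repeated it was 3 without PERC replicate 7 or 8. The causes were not tested. No paired analysis was possible because replicate numbers were given in accession order. The single regimen has 3 to 5 libraries per group, and Slc36a2, below 1 CPM in some libraries, rests on few reads there.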

Other observations

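Beside Tmem27, 5 amino acid transport genes outside the 7 families were called. Slc25a22, a mitochondrial glutamate carrier, rose after repeated PERC on HFD, by a log2 fold change of 1.46 (SE 0.24, adjusted p = 3.78e-05), and on MCD, by 0.99 (SE 0.25, adjusted p = 0.0104). Slc25a40, a mitochondrial carrier, fell on HFD at -0.32 (SE 0.07, adjusted p = 0.0034), as did Anpep (aminopeptidase N), the brush border peptidase, at -0.27 (SE 0.07, adjusted p = 0.0136). In vehicle mice Anpep was higher on HFD than on LFD in both regimens, at 0.53 (SE 0.08, adjusted p = 6.65e-06) in the repeated and 0.56 (SE 0.10, adjusted p = 0.00349) in the single regimen, and higher on MCD in the repeated regimen, at 0.39 (SE 0.08, adjusted p = 0.00185). Slc16a10 (TAT1), the basolateral carrier of aromatic amino acids, was lower on HFD at -0.32 (SE 0.08, adjusted p = 0.00597) and on MCD at -0.34 (SE 0.08, adjusted p = 0.00779). Ctns, the lysosomal cystine exporter, was lower on MCD at -0.23 (SE 0.07, adjusted p = 0.0495).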
